A study of Cucumis melo with 12 samples.

Results

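The genes described here are 119 melon (Cucumis melo) leaf transcripts whose level increased over 12 h of exposure to 4 °C in the chilling-sensitive variety 13-5A and much less, or not at all, in the chilling-tolerant variety 162. They are 119 of the 21691 genes of the deposited table, chosen by their measured values in these 12 libraries. FPKM, the unit of the table, is a fragment number normalised to gene length and library size, and changes are differences of group means of log2(FPKM + 1). A member averaged 3 FPKM or more across all libraries. Its change over 12 h was at least 1 in 13-5A, and above -0.6 and below 1 in 162. Its change in 13-5A also exceeded that in 162 by a factor of at least 2.38 in FPKM + 1. The 2 changes and their difference therefore define the members. Counts of members that limma called for them, or for the varieties' difference at one time, which is tied to them, are largely fixed by the rule. They are given only to describe the members and support nothing.

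Leaves of 2 varieties were sampled at 2 times. The groups were 13-5A after 12 h at 4 °C, 13-5A at 0 h, 162 after 12 h at 4 °C and 162 at 0 h, with 3 libraries each. Samples of both times carry the label of a 4 °C treatment, and 0 h was taken as its beginning; the labels give no plant age or earlier temperature. No unchilled group sampled at 12 h was analysed here, so chilling and elapsed time cannot be told apart. Tolerance and sensitivity are each represented by 1 variety. Whether the 3 libraries of a group are 3 plants is not labelled, and p-values therefore reflect the variation among these samples alone, possibly technical.

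Melon belongs to the cucurbits, plants of warm regions in which temperatures well above freezing already injure leaves. Chilling slows enzymes and stiffens membranes, and leaf cells answer with calcium signals, reactive oxygen species and the induction of transcription factors, among them the CBF factors, which act on cold-responsive promoters. Sensitive and tolerant varieties of one species commonly differ in the timing and extent of such responses. The identifiers in the deposited table carry no gene names, and 0 of them matched the RefSeq name table of the assembly USDA_Cmelo_AY_1.0. The members are therefore given by their identifiers, no function is assigned to them, and the leaf identity of the samples was not checked against marker genes.

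Library totals recovered from the FPKM values lay between 41299369 and 45355323 reads. A gene of the median length, 1645 bases, had about 72.7 reads per FPKM, and 92 of the 119 members had 100 reads or more in every 13-5A library at 0 h. The fewest reads of any member in such a library was 1. Within every group the libraries differed by more than counting noise, with a chi-square between 37.6 and 263 per gene, and each was kept as a sample of its own. In bulk leaves, fewer cells of a type and less RNA per cell cannot be told apart.

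In 13-5A the members' change over 12 h ran from 1.01 to 4.18 on the log2 scale, with a median of 1.75. It lay under 1.5 in 43 members, between 1.5 and 2 in 41 and between 2 and 3 in 32. Only 3 members reached 3 or more, MELO3C024499.2, MELO3C005673.2 and MELO3C005964.2, the last named after its values were seen. In 162 the change ran from -0.58 to 0.97 with a median of 0.04, and it was above 0 in 67 members. The median change over the 15592 tested genes, those averaging 1 FPKM or more, was 0.07 in 13-5A and -0.12 in 162.

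**Figure D1:**
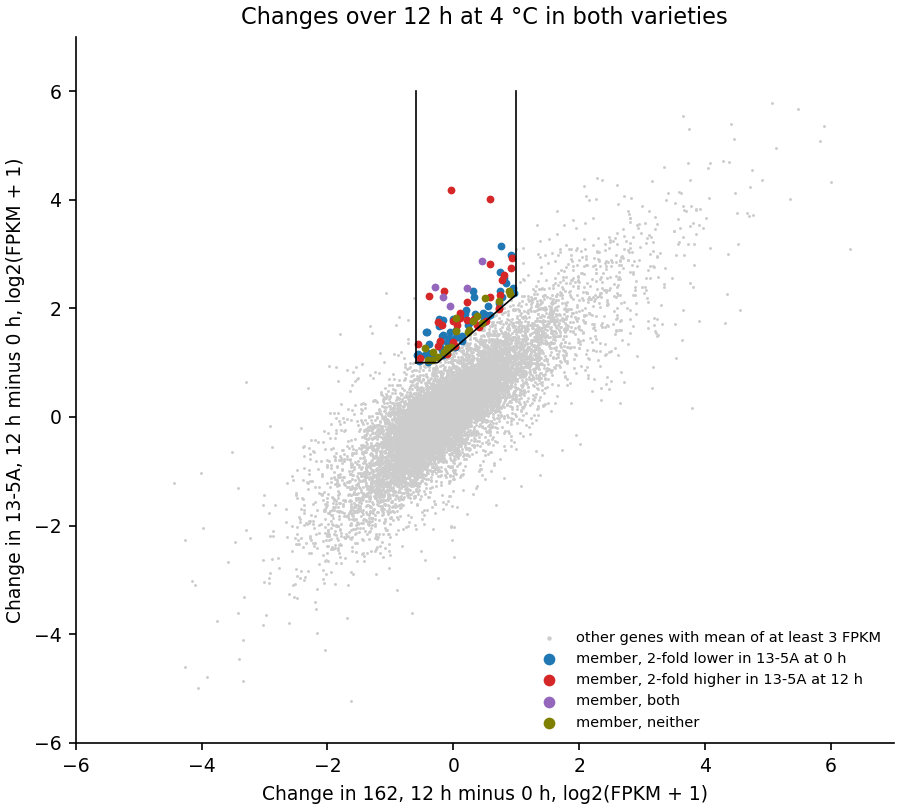
Change over 12 h at 4 °C in 13-5A (vertical axis) against that in 162 (horizontal axis), both as differences of mean log2(FPKM + 1), for genes averaging 3 FPKM or more. Coloured points are the 119 members, coloured by how the varieties differ at 0 h and 12 h, and black lines are the limits of the rule. Most members lie close to the lower limit line, and 2 points stand far above it at about 4 on the vertical axis.

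Within 13-5A the 3 libraries at 12 h were all above the 3 libraries at 0 h for 115 of the members, against 34.8% of the tested genes. The test of limma with Benjamini-Hochberg adjustment, at an adjusted p under 0.05 and a 2-fold change, called 116 members higher at 12 h in 13-5A, against 12.6% of the tested genes. Both counts follow from the rule. The 3 members that were not called, named after their values were seen, were MELO3C002437.2, MELO3C012630.2 and MELO3C013872.2, with changes of 1.19, 1.16 and 1.153.

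In 162 the libraries of the 2 times overlapped or interleaved for most members, and they were free of overlap in 21 of them, against 53.6% of the tested genes. With the same call limma gave 0 members higher at 12 h in 162, against 9.24% of the tested genes, and 0 lower, against 10.6%. The rule's limits on the change in 162 leave no room for 2-fold in either direction on this scale. They also hold down the other counts of this paragraph. An unadjusted p under 0.05 was reached by 22 members, against 56.1% of the tested genes. Without the fold minimum, 12 members were called higher in 162, against 19.9% of the tested genes, and 2 lower, against 29.6%. With the fold minimum, voom on the recovered reads called 5 members higher, against 11.8% of the genes. Median-ratio scaling called 4, against 10.6%, and a pseudocount of 0.1 called 3, against 10.4%. Without replicate 2 of 162 at 0 h, 6 members were called, against 10.6% of the genes, and without replicate 3 of 162 at 12 h also 6, against 8.57%. Without replicate 1 of 162 at 0 h, 2 were called, against 8.16%. Without replicate 1 of 162 at 12 h, 1 was called, against 9.83%, and without replicate 2 of that group 2, against 9.25%.

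The members fell along a range in 162. The change there was within 0.3 of 0 in 59 members, whose median change in 13-5A was 1.57. It was at or below -0.3 in 18 members, with a median of 1.16 in 13-5A, and at least 0.6 in 20 members, with a median of 2.34 in 13-5A. A further 22 members lay between 0.3 and 0.6 in 162. The larger changes in 13-5A beside larger ones in 162 follow in part from the gap that the rule requires.

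Taken as a whole, the members were low in 13-5A at 0 h. Their median level per library, on the log2(FPKM + 1) scale, was 5.11, 4.83 and 5.05 in 13-5A at 12 h, against 3.11, 3.26 and 3.13 in 13-5A at 0 h. In 162 it was 4.35, 4.44 and 4.39 at 12 h, against 4.08, 4.50 and 4.05 at 0 h. The 13-5A libraries at 0 h were the 3 lowest of the 12 and the 13-5A libraries at 12 h the 3 highest. These positions largely follow from the rule, which used the same libraries. The median over all genes averaging 3 FPKM or more averaged 3.96 ± 0.04 in 13-5A at 12 h, 3.79 ± 0.04 in 13-5A at 0 h, 4.05 ± 0.02 in 162 at 12 h and 4.05 ± 0.07 in 162 at 0 h (SD, n = 3 each).

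The members together held 1.40% ± 0.169 of all FPKM in 13-5A at 12 h, against 0.386% ± 0.0206 in 13-5A at 0 h (SD, n = 3). In 162 they held 1.27% ± 0.153 at 12 h and 1.09% ± 0.241 at 0 h. The shares at 12 h overlapped between the varieties, while at 0 h all 13-5A libraries lay below all 162 libraries. The larger share in 13-5A at 12 h than at 0 h largely follows from the rule. Without the most abundant member, MELO3C023606.2, the shares were 1.07% ± 0.114 and 0.316% ± 0.0182 in 13-5A, and 0.940% ± 0.101 and 0.904% ± 0.205 in 162, at 12 h and 0 h in that order.

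**Figure D2:**
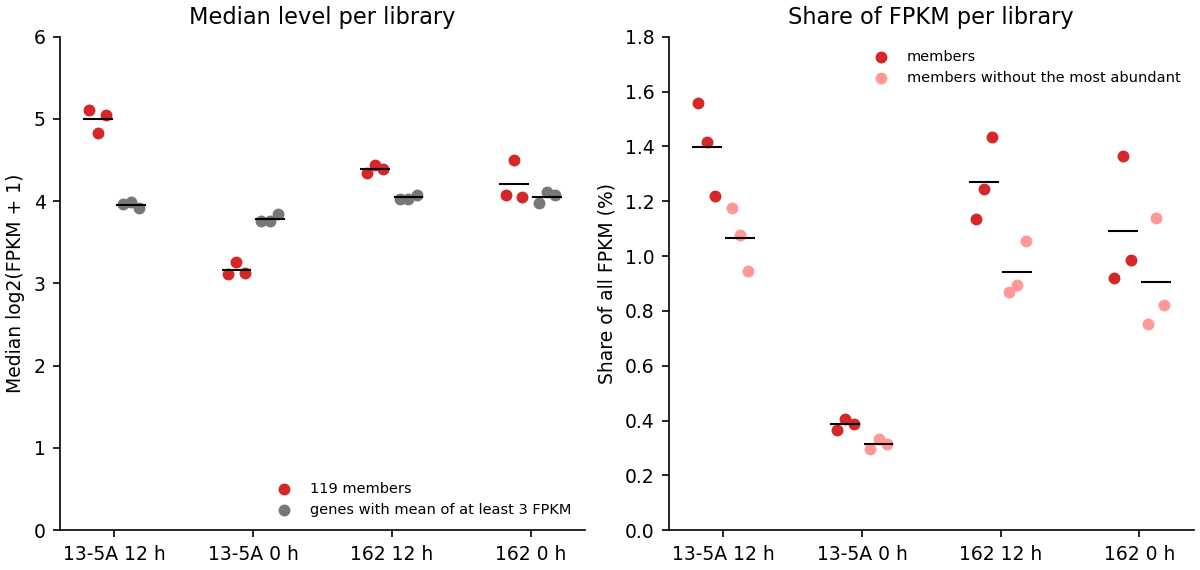
Left, median log2(FPKM + 1) of the 119 members and of all genes averaging 3 FPKM or more in each library; right, share of all FPKM held by the members, with and without the most abundant one. Points are libraries and black lines are group means (n = 3); the 13-5A libraries at 0 h lie lowest in both panels.

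The varieties were then compared at each time. The mean level was lowest in 13-5A at 0 h for 104 members and highest in 13-5A at 12 h for 77. At 0 h the median difference, 13-5A minus 162, was -1.07 over the members and -0.24 over the tested genes. At 12 h it was 0.46 over the members and -0.07 over the tested genes. The 2 differences of a member must lie as far apart as the 2 changes do, so their positions, and every count based on them, largely follow from the rule.

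By these differences the members took 4 forms. In 60 members (50.4%) the level in 13-5A was at least 2-fold below that in 162 at 0 h and was not 2-fold above it at 12 h, against 11.9% of the tested genes. In 34 members (28.6%) the level in 13-5A was at least 2-fold above that in 162 at 12 h without having been 2-fold below it at 0 h, against 3.12% of the tested genes. Both held for 5 members, against 0.0834% of the tested genes, and neither for 20, against 84.9%. The larger share in the first 3 forms is what the rule selects.

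**Figure D3:**
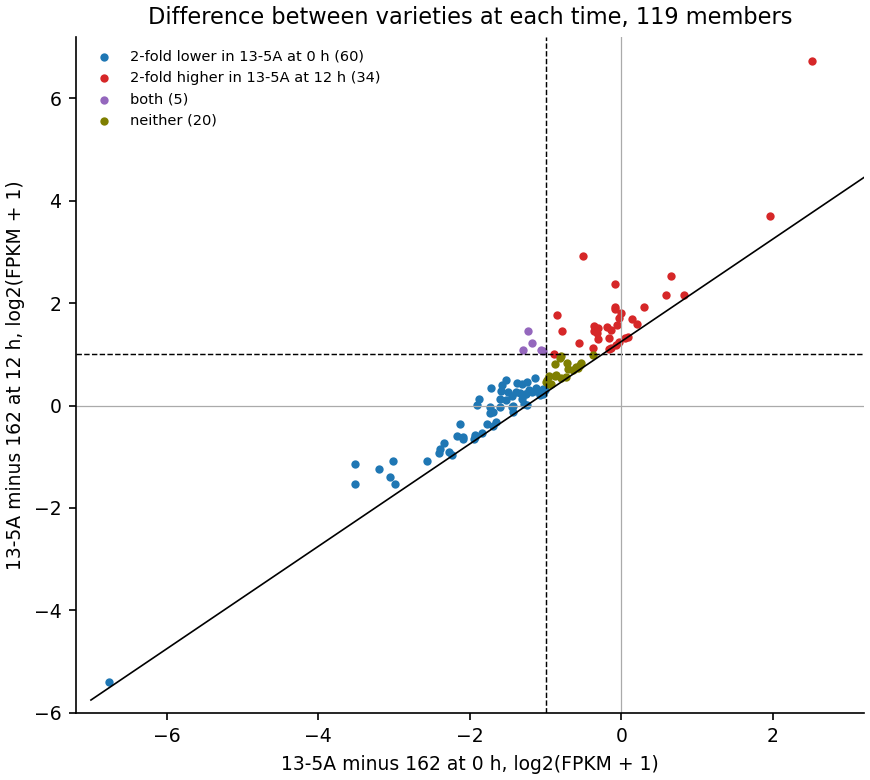
Difference between varieties, 13-5A minus 162 in mean log2(FPKM + 1), at 12 h (vertical axis) against 0 h (horizontal axis) for the 119 members. Dashed lines mark a 2-fold difference, the black line marks the smallest gap the rule allows, and colours give the 4 forms with their numbers (60, 34, 5 and 20).

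The counts in this comparison come from the values that chose the members. At 0 h limma called 63 members lower in 13-5A, at an adjusted p under 0.05 and a 2-fold difference, against 11.7% of the tested genes, and 2 members higher, against 3.08%. In the 12 h libraries it called 34 members higher in 13-5A, against 2.92% of the tested genes, and 6 lower, against 4.97%. Without replicate 3 of 13-5A at 12 h, 3 members in place of 6 were called lower, against 3.65% of the tested genes in place of 4.97%. The 13-5A libraries at 0 h all lay below the 162 libraries at 0 h in 83 members, against 38.2% of the tested genes. The 13-5A libraries at 12 h all lay above the 162 libraries at 12 h in 55 members, against 15.9%, and all below them in 18, against 25.3%.

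In the 60 members that began low in 13-5A, the median of the group means was 32.1 FPKM in 13-5A at 12 h and 8.88 FPKM in 13-5A at 0 h, while in 162 it was 37.7 FPKM at 12 h and 33.8 FPKM at 0 h. Their median difference between varieties was -0.01 at 12 h and -1.63 at 0 h. At 12 h the varieties were within 2-fold of each other in 52 of them and within 0.5 on the log2 scale in 38, and 13-5A was still at least 2-fold lower in 8. This form held most of the abundant members, 12 of the 14 averaging 100 FPKM or more, and 3 of the 15 with a mean under 5 FPKM.

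MELO3C023606.2, the most abundant member with a gene length of 1801 bases, shows this form. It stood at 2431, 2161 and 1792 FPKM in 13-5A at 12 h, against 434, 472 and 468 FPKM in 13-5A at 0 h. In 162 it stood at 1755, 2242 and 2408 FPKM at 12 h, against 1189, 1481 and 1072 FPKM at 0 h. At 12 h the libraries of the varieties overlapped, with a difference of -0.003 on the log2 scale, whereas at 0 h every 13-5A library was below every 162 library. Its change was 2.20 in 13-5A and 0.78 in 162 (SE 0.19 each).

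MELO3C026500.2, with 1923 bases, had the second lowest level in 13-5A relative to 162 at 0 h among members averaging 5 FPKM or more. It stood at 94.3, 122 and 85.2 FPKM in 13-5A at 12 h, against 30.2, 39.0 and 30.8 FPKM in 13-5A at 0 h. The 162 libraries gave 276, 240 and 368 FPKM at 12 h, against 339, 470 and 374 FPKM at 0 h. The difference between varieties was -1.54 at 12 h and -3.52 at 0 h, and no 13-5A library reached any 162 library at either time. MELO3C005964.2 also had a difference of -3.52 at 0 h (SE 0.32, against 0.20 for MELO3C026500.2), so the values do not separate their ranks.

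The lowest relative level at 0 h was that of MELO3C002437.2, with 776 bases. It stood at 0.153, 6.78 and 0.962 FPKM in 13-5A at 12 h, against 0.0568, 0.0306 and 0.346 FPKM in 13-5A at 0 h. Its level in 162 was 143, 114 and 77.8 FPKM at 12 h, against 74.2, 233 and 105 FPKM at 0 h. It had 276 reads in all in 13-5A at 12 h and 15 in 13-5A at 0 h, and the 13-5A libraries of the 2 times overlapped. Replicate 2 of 13-5A at 12 h held the highest of these 13-5A values, and the other 2 libraries at 12 h stayed under 1 FPKM.

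MELO3C035758.2 and MELO3C015962.2 had the highest changes in 162 among members averaging 5 FPKM or more. MELO3C035758.2, with 609 bases, stood at 14.2, 11.4 and 12.8 FPKM in 13-5A at 12 h, against 1.48, 2.42 and 1.65 FPKM in 13-5A at 0 h. The values in 162 were 21.96, 22.1 and 16.5 FPKM at 12 h, against 7.84, 13.0 and 9.05 FPKM at 0 h. The 12 h libraries were thus above the 0 h libraries in both varieties, with changes of 2.28 in 13-5A and 0.97 in 162 (SE 0.19 each). MELO3C015962.2, with 1942 bases, averaged 14.4 ± 2.14 FPKM in 13-5A at 12 h and 2.00 ± 0.585 FPKM in 13-5A at 0 h, and 13.4 ± 3.43 and 6.51 ± 1.89 FPKM in 162 at 12 h and 0 h (SD, n = 3 each). Its changes were 2.37 in 13-5A and 0.94 in 162 (SE 0.22 each).

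MELO3C006821.2 had the lowest change in 162. It stood at 609, 486 and 383 FPKM in 13-5A at 12 h, against 211, 227 and 216 FPKM in 13-5A at 0 h. The 162 libraries had 340, 400 and 354 FPKM at 12 h, against 537, 837 and 357 FPKM at 0 h. The libraries of 162 overlapped between times, since replicate 3 at 0 h was as low as the 12 h libraries. The change in 162 was -0.58 (SE 0.27).

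In the 34 members that ended high in 13-5A, the median of the group means was 31.5 FPKM in 13-5A at 12 h and 7.39 FPKM in 13-5A at 0 h, against 7.07 FPKM in 162 at 12 h and 7.93 FPKM in 162 at 0 h. Their median difference between varieties was 1.54 at 12 h and -0.08 at 0 h, and at 0 h the varieties were within 2-fold of each other in 32 of them. This form held 8 of the 15 members with a mean under 5 FPKM and 0 of the 14 averaging 100 FPKM or more.

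MELO3C005673.2, with 2072 bases, had one of the 2 largest changes in 13-5A. It stood at 247, 105 and 138 FPKM in 13-5A at 12 h, against 7.66, 10.02 and 8.14 FPKM in 13-5A at 0 h. In 162 it stood at 32.5, 26.9 and 8.07 FPKM at 12 h, against 12.8, 13.9 and 11.2 FPKM at 0 h. All 13-5A libraries at 12 h were above every other library, and the 162 libraries overlapped between times, with replicate 3 at 12 h below all 3 at 0 h. The changes were 4.01 in 13-5A and 0.59 in 162 (SE 0.42 each).

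MELO3C024499.2, with 2160 bases, was read in 13-5A and hardly at all in 162. It stood at 132, 107 and 90.4 FPKM in 13-5A at 12 h, against 9.05, 0.803 and 11.0 FPKM in 13-5A at 0 h. The 162 libraries together held 7 reads at 12 h and 15 at 0 h, at most 0.0859 FPKM in any library, so its change in 162 is one between counts of a few reads. Replicate 2 of 13-5A at 0 h held 73 reads, far fewer than the other libraries of that group.

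MELO3C024479.2, with 1764 bases, was likewise higher in 13-5A at both times, but was measured in all groups. It stood at 89.6, 42.0 and 65.7 FPKM in 13-5A at 12 h, against 17.6, 10.8 and 28.1 FPKM in 13-5A at 0 h. Values of 162 were far lower, 3.99, 4.60 and 3.19 FPKM at 12 h, against 2.72, 7.72 and 2.35 FPKM at 0 h. MELO3C024499.2 and MELO3C024479.2 were the 2 members at least 2-fold higher in 13-5A at 0 h, and also the 2 members whose 6 libraries of 13-5A all lay above the 6 of 162, against 2.6% of the tested genes. The reverse, all 6 libraries of 13-5A below the 6 of 162, held for 9 members, against 8.9%.

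MELO3C019762.2, with 741 bases, overlapped between the varieties at 0 h and not at 12 h. It stood at 32.3, 15.8 and 17.6 FPKM in 13-5A at 12 h, against 5.95, 6.54 and 11.2 FPKM in 13-5A at 0 h. In 162 it stood at 6.85, 7.42 and 5.30 FPKM at 12 h, against 12.7, 7.98 and 9.91 FPKM at 0 h. The groups did not overlap between times in either variety, and the change in 162 was -0.56 (SE 0.28).

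**Figure D4:**
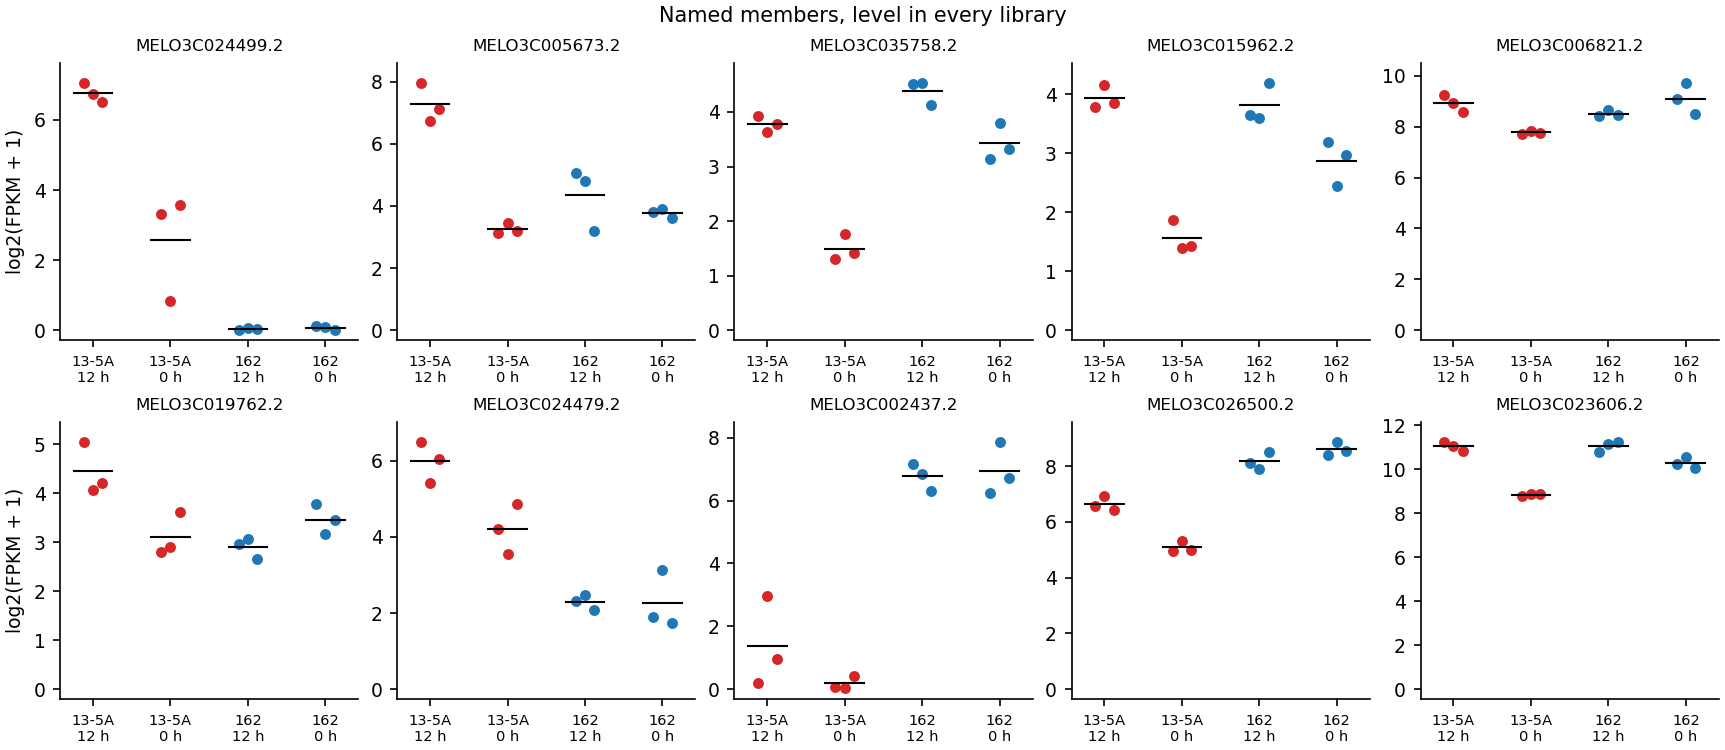
Level, log2(FPKM + 1), of the 10 members named by rule in every library; points are libraries (red 13-5A, blue 162), black lines are group means (n = 3), and each panel has its own scale starting near 0. Panels such as MELO3C023606.2 show 13-5A low at 0 h and level with 162 at 12 h, and panels such as MELO3C005673.2 show 13-5A high at 12 h.

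The 5 members that were 2-fold lower in 13-5A at 0 h and 2-fold higher at 12 h, named after their values were seen, were MELO3C010177.2, MELO3C020799.2, MELO3C026951.2, MELO3C003817.2 and MELO3C032302.2. Their differences between varieties ran from 1.06 to 1.46 at 12 h and from -1.30 to -1.04 at 0 h. They numbered 1 under median-ratio scaling and 1 to 3 without replicate 3 of 13-5A at 12 h, replicate 3 of 13-5A at 0 h, replicates 1 or 2 of 162 at 12 h, or replicate 2 of 162 at 0 h. The 20 members of neither form had median group means of 35.2 FPKM in 13-5A at 12 h and 11.8 FPKM in 13-5A at 0 h, against 23.9 and 22.5 FPKM in 162 at 12 h and 0 h. All 20 were higher in 13-5A at 12 h and lower in 13-5A at 0 h, each by less than 2-fold.

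Expression in 13-5A at 0 h was seldom absent. All 3 of its libraries were at 5 FPKM or more in 67 members, and all 3 were under 1 FPKM in 3 members, MELO3C008033.2, MELO3C010999.2 and MELO3C002437.2, the first 2 named after their values were seen.

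In this balanced design the difference between the varieties averaged over the 2 times shares no error with the 2 changes if all groups have equal spread. Limma takes the spread as equal, and whether it was equal for the members was not tested. The rule did not use the averaged difference except through the minimum mean. It was tested by limma over all 15592 genes, all 119 members among them. The averaged level was higher in 13-5A in 27 members (22.7%), against 13.6% of the tested genes, and lower in 13-5A in 48 members (40.3%), against 33% of the tested genes, at an adjusted p under 0.05. Of the 27 members called higher, 9 averaged under 3 FPKM in 162 and met the minimum mean only through 13-5A, and of the 48 called lower, 3 met it only through 162. These 12 had to differ between the varieties, so neither count is support for a difference. With a 2-fold minimum added, 8 members were called higher, against 2.37% of the tested genes, and 23 lower, against 7.25%. At an adjusted p under 0.05 the other 44 members were not called, which does not show that their levels were alike. The median averaged difference was -0.29 over the members and -0.15 over the tested genes. All 48 lower members were of the form that began low in 13-5A and all 27 higher ones of the form that ended high, since the forms are cut from the same differences. Of the 32 genes rising mainly in 162 by the exchanged rule, 5 (15.6%) were higher in 13-5A and 14 (43.8%) lower. Of the 1067 genes that increased by at least 1 in both varieties, 112 (10.5%) were higher and 358 (33.6%) lower.

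**Figure D5:**
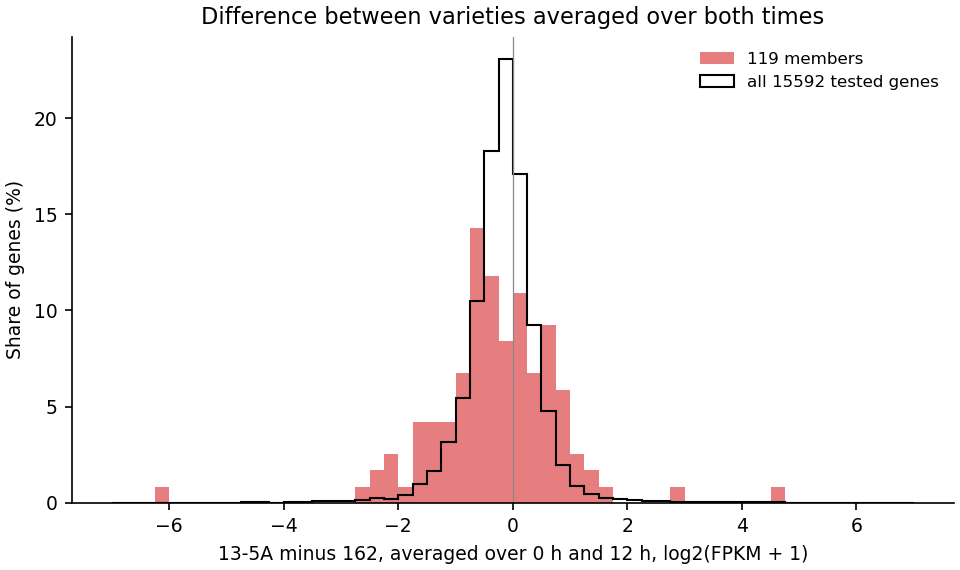
Distribution of the difference 13-5A minus 162, averaged over 0 h and 12 h, in log2(FPKM + 1), for the 119 members (filled) and all 15592 tested genes (line), as percent of each. The members have a median of -0.29 against -0.15 for the tested genes.

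The averaged difference was 2.83 for MELO3C024479.2 (SE 0.28, adjusted p = 1.10e-05 by limma) and -2.53 for MELO3C026500.2 (SE 0.14, adjusted p = 9.25e-08). These 2 were named for extreme averaged differences among the members called, so a small p was part of their choice. The averaged difference was 4.63 for MELO3C024499.2 (SE 0.37) and -6.08 for MELO3C002437.2 (SE 0.41). Each of these last 2 met the minimum mean only through the variety in which it was high, and their differences are given without a test. The value for MELO3C024499.2 rests on few reads in 162 and became 7.34 with a pseudocount of 0.1 and 9.49 with voom. The remaining named members were nearer to 0. The averaged level by limma was higher in 13-5A for MELO3C005673.2 (1.20, SE 0.3, adjusted p = 0.00563) and MELO3C019762.2 (0.60, SE 0.2, adjusted p = 0.0266). MELO3C006821.2 was not called in either direction (-0.45, SE 0.19, adjusted p = 0.0655). The averaged level in 13-5A was lower for MELO3C035758.2 (-1.27, SE 0.14, adjusted p = 2.09e-05), MELO3C023606.2 (-0.72, SE 0.14, adjusted p = 0.0012) and MELO3C015962.2 (-0.59, SE 0.16, adjusted p = 0.00908), all by limma, and the last call was lost under median-ratio scaling (adjusted p = 0.0533). The call for MELO3C019762.2 was lost, with adjusted p up to 0.0634, without replicate 3 of 13-5A at 0 h, replicate 1 of 13-5A at 12 h, replicate 2 of 162 at 0 h or replicate 3 of 162 at 12 h. An averaged difference need not hold at each time. The difference at 0 h and 12 h, in that order, was -0.51 and 2.92 for MELO3C005673.2 and -0.36 and 1.55 for MELO3C019762.2. It was -1.43 and -0.003 for MELO3C023606.2, -1.31 and 0.12 for MELO3C015962.2, and -1.93 and -0.61 for MELO3C035758.2.

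The scaling between libraries bears on both counts. Median-ratio scaling moved the median averaged difference over all tested genes to 0.03. It called 30 members (25.2%) higher and 36 (30.3%) lower, against 23.4% and 20.3% of the tested genes. All 27 members called higher as deposited and 36 of the 48 called lower were called the same way with this scaling. Voom called 28 (23.5%) higher and 37 (31.1%) lower, against 22.6% and 19.8% of the genes. With both alternatives the share of members higher in 13-5A was thus near that of all tested genes, and the share of members lower in 13-5A was above it. The larger share lower was not particular to the members. Of the 32 genes rising mainly in 162, 34.4% and 31.2% were lower with median-ratio scaling and voom, and 25% were higher with each. Of the 1067 genes that increased in both varieties, 23% and 21.3% were lower, and 17.1% and 15.3% higher. The tested genes also include those averaging 1 to 3 FPKM, which the rule leaves out.

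The difference between the changes in 13-5A and 162, which defines the members, ran from 1.253 to 4.22 with a median of 1.55, against a median of 0.16 over the tested genes. Limma called it in 66 members (55.5%) against 2.37% of the tested genes, and voom in 36, against 0.712%. Having chosen the members by this difference, the rule largely sets these counts, and nothing is read from them. The limma count was 27 when replicate 1 of 13-5A at 0 h was omitted, against 0.68% of the tested genes. It was 42 when replicate 3 of that group was omitted, against 1.38%. Omitting replicate 1 of 13-5A at 12 h gave 30 members, against 0.879%. Omitting replicate 1 of 162 at 12 h gave 41, against 1.55%, and omitting replicate 2 of that group gave 39, against 1.03%. In these fits the share called over all tested genes was thus also below 2.37%.

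Gene length, level and spread were set beside those of other genes; of these the rule bounds the level by its minimum mean. The members' median gene length was 1584 bases (quartiles 947 and 1964.5), against 1659.5 bases (quartiles 1151 and 2299) for the 13186 genes averaging 3 FPKM or more. Their median level was 21.3 FPKM, against 15.5 FPKM for those genes. Their median SD within groups was 0.39 on the log2 scale, against 0.23 for those genes and 0.34 for the 1067 genes that increased by at least 1 in both varieties. A rule on differences of means favours genes that vary among replicates, and how far it did so here was not tested.

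The same rule with the varieties exchanged chose 32 genes rising mainly in 162. Under median-ratio scaling the rule chose 80 genes rising mainly in 13-5A, 77 of them members, and 55 rising mainly in 162. With equal FPKM totals in every library it chose 117 and 38. Median-ratio scaling moved the median difference between the changes over all tested genes to -0.01, against 0.16 as deposited. Of the 60 members that began low in 13-5A, 38 were still chosen under median-ratio scaling, and of the 34 that ended high, 25.

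The smallest difference between the changes among members was 1.253, and the largest just outside the limit, with the other conditions met, was 1.243. Within 0.1 of the limit lay 24 members inside and 39 genes outside. A further 41 genes missed only by a change in 162 of 1 or more, 16 only by a change in 162 of -0.6 or less, and 21 only by a change in 13-5A under 1. Leaving out 1 library at a time, the rule chose 102 to 170 genes, among them 84 to 111 of the members, and 42 members were chosen in all 12 such sets.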

How the data were processed

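The authors deposited FPKM per gene and library, per the file headers; the aligner, counter, genome build and annotation were not given in the sources used here. Per the labels' protocols, RNA was extracted with TRIzol and sequenced as paired-end reads. Column names matched the descriptions of the samples, with 0 columns left over. Whole reads were recovered by solving jointly for gene lengths and library totals: 100% of values of the tested genes were whole within 0.001 reads.

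Values were transformed to log2(FPKM + 1), which understates changes of low genes. Genes averaging 1 FPKM or more were fitted with limma 3.58.1 in R 4.3.3 (4 groups, intensity trend, 8 residual degrees of freedom; Benjamini-Hochberg over 15592 genes); the alternatives include voom of limma on the recovered reads with median-ratio library sizes. Calls needed an adjusted p under 0.05 and, except for the difference averaged over times, a 2-fold difference. Other steps used Python 3.11.15, numpy 2.4.6, pandas 2.3.3 and matplotlib 3.10.9. Read recovery and fit were tested on simulated data.

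Alternatives were other pseudocounts, filters, scalings and fold minimums, no intensity trend, a replicate block, and leaving out each library. The members, forms and tests were chosen with earlier results of these data known. Since no identifier matched a name, up to 2 members per comparison and direction were named if they averaged 5 FPKM or more: largest change in 13-5A, largest difference between the changes, highest and lowest change in 162, highest and lowest called averaged difference, lowest difference at 0 h, highest at 12 h, and highest mean.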

Additional observations from a re-analysis of the deposited data

Results flagged for a closer look

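For 8 of the 10 members named by rule, limma called the change over 12 h different between 13-5A and 162, against 2.37% of the tested genes. This difference chose the members, so the values and the calls describe the members and are no evidence for a difference. The difference, 13-5A change minus 162 change, was 4.22 for MELO3C024499.2, 3.425 for MELO3C005673.2, 1.98 for MELO3C026500.2 and 1.90 for MELO3C019762.2. It was 1.73 for MELO3C006821.2, 1.43 for MELO3C023606.2, 1.42 for MELO3C015962.2 and 1.32 for MELO3C035758.2. The other 2 named members, MELO3C024479.2 and MELO3C002437.2, had differences of 1.75 and 1.36 that were not called. Of the 8, voom did not call MELO3C024499.2 (adjusted p = 0.45), MELO3C035758.2 (0.0574), MELO3C015962.2 (0.0613) or MELO3C019762.2 (0.0626). With 1 library left out, the adjusted p of limma reached 0.0727 for MELO3C035758.2, 0.0731 for MELO3C015962.2 and 0.0769 for MELO3C006821.2. It reached 0.0711 for MELO3C019762.2 and 0.064 for MELO3C023606.2.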

How the results depend on the processing

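Of 478 values under alternatives, 443 kept their call or moved little (a count by at most 1.5 times), 28 moved further, and named members lost 5 calls and gained 2; 0 reversed. With a 2-fold minimum the averaged difference called 8 members higher and 23 lower in 13-5A, by construction. A pseudocount of 0.1 gave 182 genes by the rule, 113 of them members. Of the members as first chosen, it left 11 in neither form. Members called higher over 12 h in 162 numbered 1 with equal totals, for which no share of the tested genes is given. They numbered 4 with median-ratio scaling, 3 with a pseudocount of 0.1, 5 with voom and 12 without the fold minimum. Voom called the difference between the changes in 36 members. Dropping the fold minimum gave 10 members lower in 13-5A at 12 h, for which no share of the tested genes is given. Median-ratio scaling left 1 member in both forms. The causes were not tested, except where the fold minimum itself changed. Over the 12 omissions of 1 library there were 19 to 28 members higher and 43 to 51 lower averaged over times. Shares of all tested genes are not given for these averaged counts, and nothing is read from them. From 0 to 6 members were called in 162, against 8.16% to 10.6% of the tested genes. The difference between the changes was called in 27 to 73, against 0.68% to 3.08%. From 3 to 9 were lower in 13-5A at 12 h, against 3.65% to 5.83%. The rule chose 102 to 170 genes, and 1 to 6 of the members were in both forms. The calls lost were those of MELO3C015962.2 with median-ratio scaling (-0.42, adjusted p = 0.0533 by limma) and of MELO3C019762.2 without any of 4 libraries. MELO3C006821.2 gained a call without replicate 1 of 13-5A at 12 h (adjusted p = 0.0465) or replicate 3 of 162 at 0 h (0.0104). Voom was chosen after seeing the data. Whether equal replicate numbers mark paired samples is not labelled. Over 18 pairs of libraries with equal numbers in different groups, deviations from the group means had correlations of -0.31 to 0.31. Of these, 2 exceeded 0.1. With 3 libraries per group these values cannot show that the samples were unpaired. A fit with the replicate block called 25 members higher and 48 lower averaged over times. The matching shares of all tested genes are not given, so nothing is read from these counts. Precision is limited for MELO3C024499.2 in 162 and MELO3C002437.2 in 13-5A, which had few reads.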

Other observations

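Single libraries ranked unevenly within their groups over the members. Replicate 2 of 162 at 0 h was the highest of its group in 67 of the 119 members (56.3%), against 41.9% of the genes averaging 3 FPKM or more, and without it the rule chose 102 genes, 84 of them members. Replicate 2 of 13-5A at 0 h was the highest of its group in 67 members (56.3%), against 32% of those genes. Replicate 1 of 13-5A at 12 h was the lowest of its group in 15 members (12.6%), against 29.9%. Of the 42 members chosen whichever library was left out, 38 were also chosen under median-ratio scaling.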
